A study of Rattus norvegicus with 10 samples.

Results

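BT2, a small molecule given here by its code name only, was compared with vehicle in rat heart muscle at 2 times, and the quantity described is the change of its effect between them. The BT2 effect at a time is the log2 ratio of BT2 over vehicle, and the change of effect is the effect at 24 h minus the effect at 4 h. Of 31580 genes in the tissue table, 15216 had enough counts to be tested, and the change of effect passed an adjusted p of 0.05 (edgeR's quasi-likelihood test, Benjamini-Hochberg adjustment over all tested genes) in 1087 of them, or 7.14%. The effect was higher at 24 h than at 4 h in 718 genes (4.72%) and lower in 369 (2.43%). A gene is called early-only where the effect passed at 4 h and not at 24 h, late-only where it passed at 24 h and not at 4 h, and sign-changing where it passed at both times in opposite directions, in each case only where the change of effect passed as well.

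Tissue came from the AAR, in this field the area at risk, which is the muscle fed by the coronary artery that was tied. The 4 groups were vehicle at 4 h, BT2 at 4 h, vehicle at 24 h and BT2 at 24 h, with 2 polyA RNA libraries each, and all of the animals had undergone the injury, with no uninjured group among the samples. Sample titles count the hours from ligation of the left coronary artery, while the series text counts them from M/IR injury. For the tissue samples, neither strain, sex, age nor dose is stated in the sources used here, and nothing says that the 2 samples of a group are separate animals, so the p-values measure the spread between these samples only.

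After a coronary artery is closed and reopened, heart muscle goes through an early phase of stress signalling, in which immediate early transcription factors and cytokines are induced within hours. A later phase follows, in which monocytes enter, dividing cells increase, and surviving cardiomyocytes carry lower levels of transcripts for fatty acid oxidation, respiration and contraction. Respiration in the heart is fed mainly by fatty acids, which are activated, carried into mitochondria and oxidised there, so genes of these steps are among the most abundant of cardiomyocytes.

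Library totals ran from 10397310 to 24480984 counts, and the biological coefficient of variation was 14.3%. The summed level of 10 cardiomyocyte markers was 82010 to 97040 CPM (each count as a share of its library's total, scaled with TMM factors) in vehicle and 90970 to 91860 CPM with BT2 at 4 h, against 25990 to 26460 CPM and 43650 to 56400 CPM at 24 h. The sum of 14 monocyte and macrophage markers was 900.7 to 1293 CPM in vehicle and 685.5 to 863.1 CPM with BT2 at 4 h, against 3318 to 3969 CPM and 1330 to 1548 CPM at 24 h. In bulk tissue, fewer cells of a type and less RNA per cell cannot be told apart, and the part of these marker shifts in the results that follow was not tested.

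The number of calls depended on single libraries. Leaving out 1 library gave 1443 genes without vehicle 4 h replicate 1, 363 without vehicle 4 h replicate 2, 296 without BT2 4 h replicate 1 and 102 without BT2 4 h replicate 2. It gave 48 without vehicle 24 h replicate 1, 0 without vehicle 24 h replicate 2, 22 without BT2 24 h replicate 1 and 879 without BT2 24 h replicate 2. In the fit that gave 0 calls by edgeR, the smallest adjusted p was 0.0547, 2854 genes stood at an unadjusted p under 0.05 and limma-trend called 30. Of the 1087 genes, 1086 kept an unadjusted p under 0.05 in each of the 8 fits, although 0 were called by edgeR in all 8 and 6 by limma-trend. These 1087 genes were selected by their p in the fit with all 8 libraries, and each fit without 1 library reuses the rest. An unadjusted p that stays under 0.05 in them is therefore no separate support. Many of the genes selected by rule are given with their values in every library. The others, and other list members, are given without library values, and the dependence on single libraries applies to them too.

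**Figure D1:**
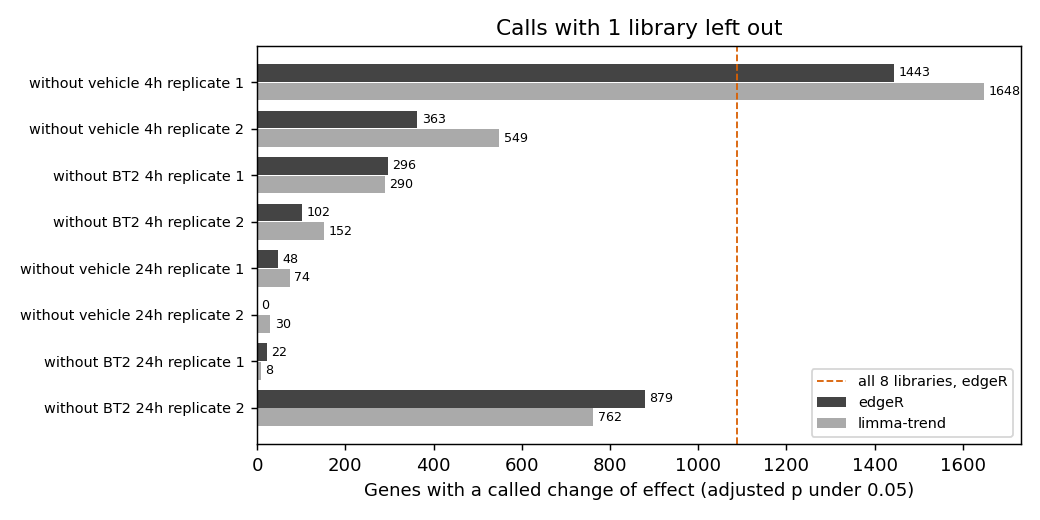
Genes with a called change of effect (x axis, adjusted p under 0.05) when 1 of the 8 tissue libraries was left out (y axis), by edgeR (dark bars) and by limma-trend (light bars). The dashed line marks the 1087 genes called by edgeR with all 8 libraries, and both 24 h vehicle libraries and BT2 24 h replicate 1 gave the lowest bars.

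Late-only effects outnumbered early-only ones. In all, 571 genes were late-only higher (3.75% of tested genes), 254 late-only lower (1.67%), 75 early-only higher (0.493%) and 74 early-only lower (0.486%). Another 31 genes went from lower to higher (0.204%) and 25 from higher to lower (0.164%), while 46 had effects in the same direction of different size and in 11 neither single effect passed. The median effect of the late-only higher genes was 0.03 at 4 h and 1.10 at 24 h, and that of the late-only lower genes was 0.19 and -0.88. For the early-only genes the medians were 0.85 and -0.22 where BT2 was higher at 4 h, and -1.0 and 0.19 where it was lower. At the time at which the effect did not pass, its size was under 0.5 in 514 of 571, 214 of 254, 69 of 75 and 67 of 74 genes of the late-only higher, late-only lower, early-only higher and early-only lower classes. The class definitions fix part of this, since a larger effect passes more often, so these counts do not show that an effect was absent at that time. Just inside the threshold lay Sema4d (change of effect 0.95, adjusted p = 0.0499) and Hsd17b11 (-0.74, 0.05), and just outside it lay Dcakd (-0.91, 0.0504) and Idh3B (0.72, 0.0504).

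**Figure D2:**
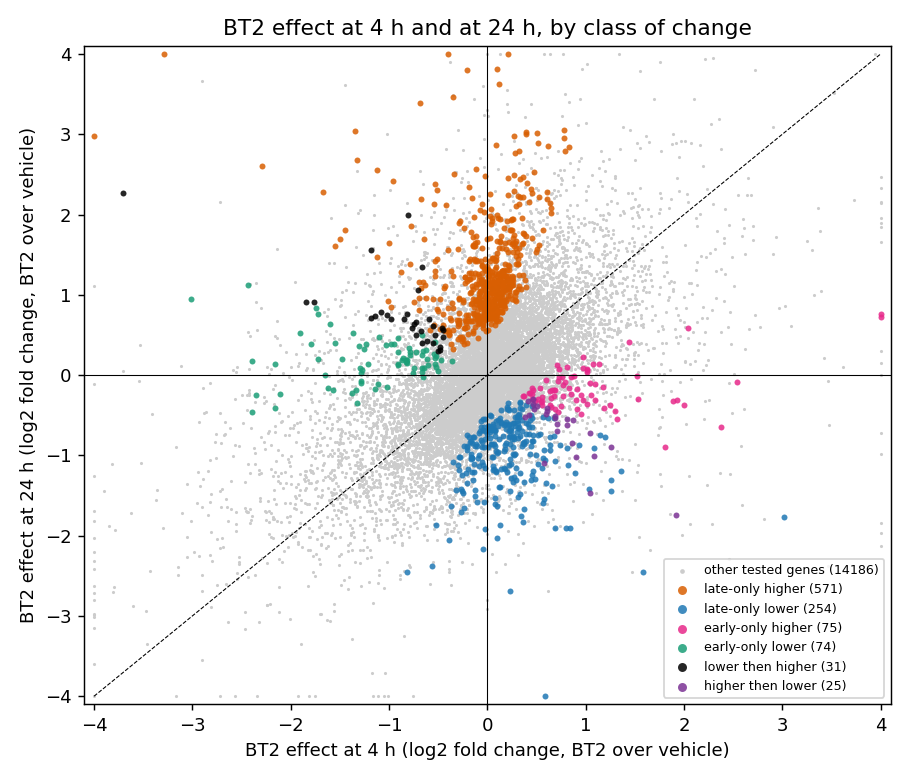
BT2 effect at 4 h (x axis) against that at 24 h (y axis), both as log2 fold change of BT2 over vehicle, for 15216 tested genes, with values beyond 4 drawn at the edge and equal effects on the dashed diagonal. Late-only genes (571 and 254) lie along the vertical axis, early-only genes (75 and 74) along the horizontal axis, and sign-changing genes (31 and 25) off both axes, above left and below right.

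The classes differed in which group held the extreme level. Vehicle at 24 h had the lowest of the 4 group means in 555 of 571 late-only higher genes and the highest in 241 of 254 late-only lower genes. Vehicle at 4 h had the highest mean in 68 of 74 early-only lower genes and the lowest in 69 of 75 early-only higher genes. Among the genes that went from lower to higher, vehicle at 4 h was highest in 24 of 31 and vehicle at 24 h lowest in 19. The class definitions fix part of this pattern, since each effect is measured against the vehicle of its own time. For 367 of 571 late-only higher and 208 of 254 late-only lower genes, the BT2 mean at 24 h lay between the 2 vehicle means.

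**Figure D3:**
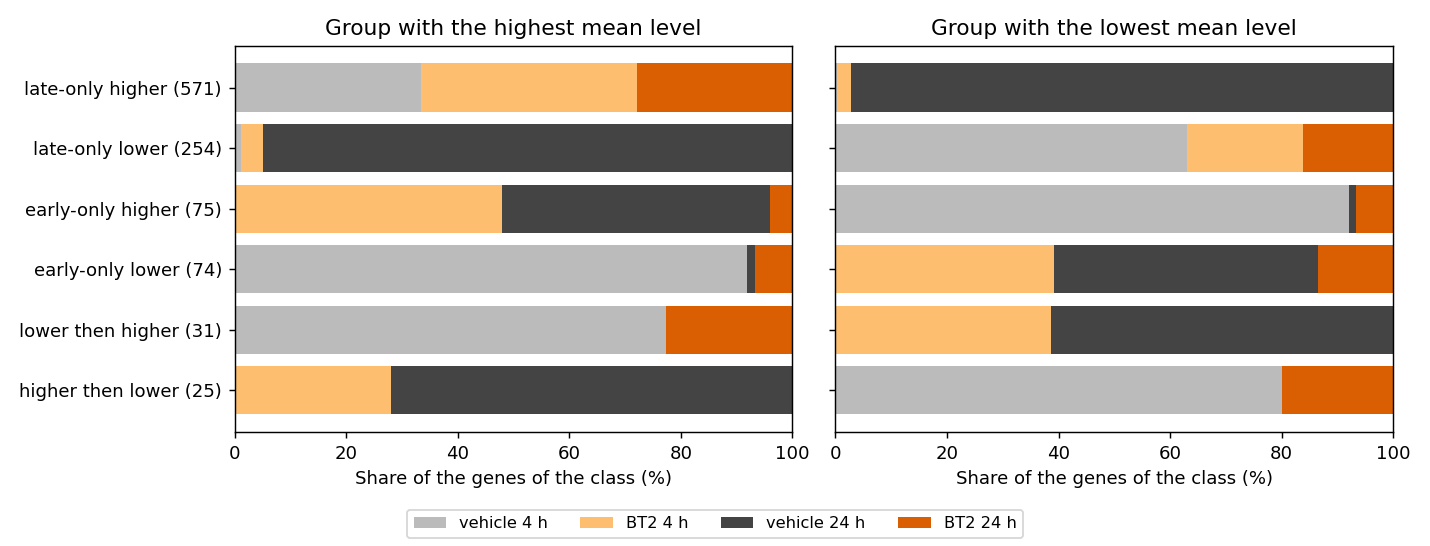
Share of the genes of each class (x axis, %) in which each of the 4 groups had the highest (left) or the lowest (right) mean level, with the number of genes of the class in brackets. Vehicle at 24 h fills most of the late-only lower bar on the left and of the late-only higher bar on the right. Vehicle at 4 h does so for early-only lower on the left (68 of 74) and early-only higher on the right (69 of 75).

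The late-only higher class held most of the transcripts of fatty acid use. Of 29 tested genes of fatty acid uptake and oxidation, the change of effect was called upward by edgeR in 23 (79.3%, against 4.72% of all tested genes). It was called downward in 0 by edgeR (1 downward at an unadjusted p under 0.05 and 1 by DESeq2). Late-only higher were 22 of the 29 (75.9%, against 3.75%). The median effect of the list was 0.11 at 4 h and 1.12 at 24 h, with a median change of 1.01, against -0.01 for all tested genes. Acsl1, which activates long-chain fatty acids, stood at 989.1 and 988.6 CPM in vehicle and 1097 and 1099 CPM with BT2 at 4 h, and at 269.8 and 288 CPM in vehicle and 889.8 and 778.6 CPM with BT2 at 24 h. Both 24 h vehicle libraries lay far below the other 6, while the BT2 libraries at 24 h approached the 4 h levels. The effect of Acsl1 was 0.15 ± 0.11 (SE) at 4 h and 1.58 ± 0.11 at 24 h, a change of 1.43 ± 0.16 (edgeR adjusted p = 0.0122). Changes of effect were 1.64 for Fabp3, which carries fatty acids in the cytoplasm of heart cells, 1.76 for the thioesterase Acot2, 1.14 for Cpt1b, the muscle carnitine palmitoyltransferase, and 0.98 for the fatty acid transporter Cd36. Mlycd, malonyl-CoA decarboxylase, was higher at both times and more so at 24 h (0.39 and 1.11). When 1 library was left out the called count of the list ran from 0 to 24 and was 0 in 2 of 8 fits, those without a 24 h vehicle library.

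Respiratory chain genes were late-only higher in 25 of 32 cases (78.1%, against 3.75% of all tested genes). All 32 had a positive change of effect at an unadjusted p under 0.05 by edgeR. Their median effect was 0.00 at 4 h and 0.80 at 24 h. Ndufs7, a subunit of complex I, was measured at 288.7 and 313.9 CPM in vehicle and 299.9 and 324.3 CPM with BT2 at 4 h, and at 140.1 and 135.9 against 280.9 and 249.6 CPM at 24 h. The 4 h groups overlapped and the 24 h groups did not. Its change of effect was 0.89 ± 0.15 (adjusted p = 0.0215). Similar sizes were found for Sdha of complex II (0.88), Uqcrfs1 of complex III (0.91), Cox6a2 of complex IV (0.86) and Atp5a1 of the ATP synthase (0.87). The count of 25 was among the least stable: it was 0 in 5 of 8 fits with 1 library left out, 30 at most, and 4 with the replicate number as a block.

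Genes that feed the respiratory chain moved the same way. In branched-chain amino acid catabolism, 13 of 24 genes (54.2%) were late-only higher, with a median change of 0.73. In the citric acid cycle and pyruvate entry list 10 of 24 (41.7%) were, with a median of 0.75. The share over all tested genes was 3.75%. Hibch, a hydrolase of valine breakdown, had 68 and 76 CPM in vehicle and 69.9 and 67.2 CPM with BT2 at 4 h, and 34.6 and 33 against 74.5 and 64.1 CPM at 24 h. Pdp1, the phosphatase that activates pyruvate dehydrogenase, had 139.1 and 148.7 against 133.4 and 118.4 CPM at 4 h and 63.8 and 61.1 against 106.5 and 102.4 CPM at 24 h. In both genes the 24 h vehicle libraries were the lowest, and for Pdp1 the 24 h BT2 libraries also lay below those of 4 h. Their changes of effect were 1.11 ± 0.16 (adjusted p = 0.0174) and 0.94 ± 0.14 (adjusted p = 0.0181). Bckdk, the kinase that restrains breakdown of branched-chain amino acids, changed by 0.60, and Pdk2, the matching kinase of pyruvate dehydrogenase, by 1.09, so inhibitors as well as enzymes of these pathways were in the class. With 1 library left out the counts ran from 0 to 14 and from 0 to 16, and with the replicate block they were 3 and 5. Of 20 metabolic regulators, 2 were late-only higher (10%, against 3.75% of all tested genes). They were the deacetylase Sirt3 (0.71) and Perm1 (1.39), a muscle regulator of oxidative metabolism. Rxrg, a retinoid X receptor, was higher at both times (0.53 and 1.90).

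Contractile and calcium transcripts followed in part. Of 31 sarcomere genes, 9 were late-only higher (29%, against 3.75% of all tested genes) and 1 early-only lower (3.23%, against 0.486%). The median change was 0.66. Myom2, an M-band protein, stood at 3723 and 3999 CPM in vehicle and 4671 and 4800 CPM with BT2 at 4 h, and at 1132 and 1175 against 3705 and 3192 CPM at 24 h. BT2 was above vehicle at both times, but the 4 h effect of 0.30 ± 0.13 did not pass (adjusted p = 0.149), and the change of effect was 1.29 ± 0.18 (adjusted p = 0.0174). Nrap, a protein of nascent myofibrils, was the member with an early-only effect (-0.91 at 4 h, 0.28 at 24 h). Of 28 genes of calcium handling and ion channels, 7 (25%, against 3.75% of all tested genes) were late-only higher. Among them were the calcium pump Atp2a2 (0.96), the potassium channel Kcnd3 (1.40) and Hrc. Hrc, a calcium-binding protein of the sarcoplasmic reticulum, had 1068 and 1177 against 1039 and 1022 CPM at 4 h and 224.6 and 214.3 against 738.1 and 596.9 CPM at 24 h (change of effect 1.73 ± 0.18, adjusted p = 0.0122). Gja1, the main gap junction protein of the ventricle, was instead early-only lower (-0.98 at 4 h, 0.38 at 24 h), and the channel subunit Cacna2d1 was late-only lower (change of effect -0.66). All 10 cardiomyocyte markers are members of the sarcomere or the calcium handling list, so they are no separate observation. Of these markers, 6 (60%, against 4.72% of all tested genes) had a called upward change, with a list median of 1.03. Their summed level in the 24 h groups is given above. With the replicate block the upward counts fell from 10 to 4 (sarcomere), from 9 to 5 (calcium handling) and from 6 to 1 (cardiomyocyte markers), and they were 0 in 3, 1 and 5 of the 8 fits without 1 library.

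**Figure D4:**
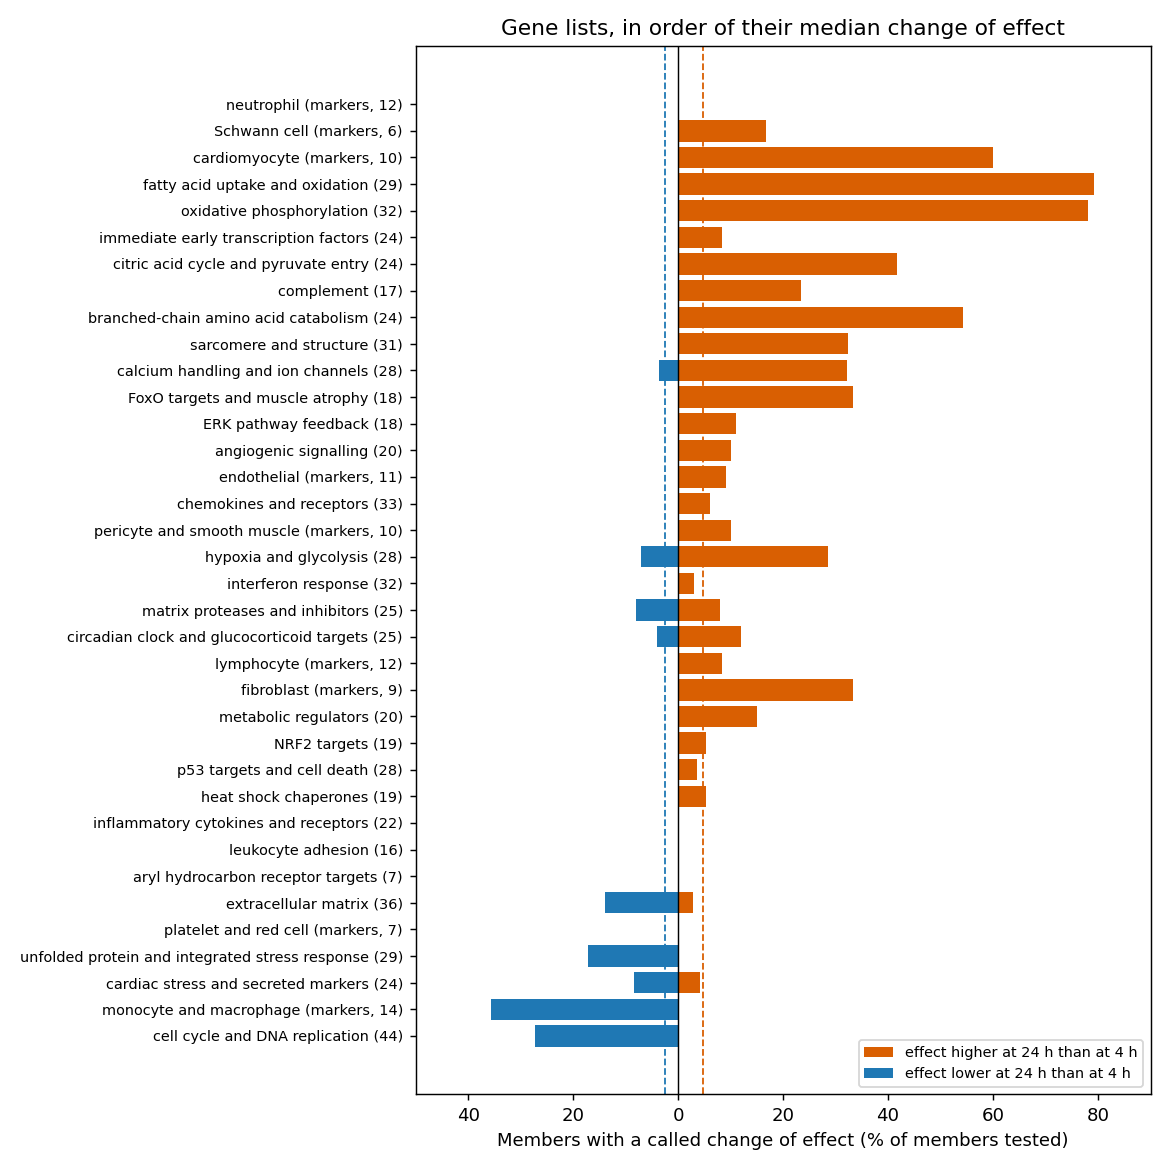
Share of the tested members of each gene list (x axis, %) with a called change of effect, upward to the right and downward to the left, with lists in the order of their median change (highest at the top) and the number of tested members in brackets. Dashed lines mark all tested genes (4.72% and 2.43%). Fatty acid, respiratory chain and cardiomyocyte lists reach farthest to the right, while monocyte and cell cycle lists reach farthest to the left.

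Late-only higher effects were also seen outside energy metabolism. Enpp2, the secreted enzyme that makes lysophosphatidic acid, had 21.2 and 21.3 CPM in vehicle and 29.5 and 26.4 CPM with BT2 at 4 h, and 4.3 and 4.1 against 38.5 and 30.1 CPM at 24 h. The 24 h vehicle libraries were the lowest and the 24 h BT2 libraries the highest of the 8. Its effect of 3.03 ± 0.16 at 24 h exceeded that at 4 h by 2.63 ± 0.21 (adjusted p = 0.0122). Gsn, the actin-severing protein gelsolin, had 2817 and 2702 against 2565 and 2422 CPM at 4 h and 711.3 and 647 against 2336 and 2156 CPM at 24 h, so that BT2 was below vehicle at 4 h and above it at 24 h, with only the latter past the test (change of effect 1.87 ± 0.17, adjusted p = 0.0122). Hfe2, the iron regulator hemojuvelin, the sialyltransferase St6galnac2 and the carboxylesterase Ces1d changed by 1.69, 1.45 and 2.70. Ces1d has close family copies, so its reads may be shared with them.

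Complement genes were late-only higher in 4 of 17 cases (23.5%, against 3.75% of all tested genes). They were C1s (1.39), C4b (1.68), Cfb (1.75) and Serping1, the C1 inhibitor (1.66). Serping1 stood at 134.6 and 107.9 against 122.1 and 150.1 CPM at 4 h, where the groups overlapped, and at 62.1 and 47.2 against 210 and 180.1 CPM at 24 h, where they did not. Of 9 tested fibroblast markers, 3 (33.3%, against 3.75% of all tested genes) were in the class, Gsn, the proteoglycan Dcn (1.38) and the matrix protein Dpt (1.08). The other 6 were not called, 1 of them changed downward at an unadjusted p under 0.05 by edgeR, and the list median was 0.16. The summed fibroblast level was 5120 to 5874 CPM in vehicle and 5531 to 5678 CPM with BT2 at 4 h, and 3723 to 4175 against 6232 to 6996 CPM at 24 h. Within these sums, Gsn alone had means of 679.2 CPM in vehicle and 2246 CPM with BT2 at 24 h. The part of the summed level in these results was not tested. Mmp2, the gelatinase, had 213.7 and 183.9 against 222 and 225.5 CPM at 4 h and 98.7 and 85.3 against 239.9 and 215.4 CPM at 24 h (change of effect 1.14 ± 0.17, adjusted p = 0.0186). The other late-only member of that list with a higher effect was the inhibitor Timp4 (2.03), while the membrane protease Mmp14 (-1.05) and the cathepsin Ctss (-0.76) were late-only lower. Myh11, the smooth muscle myosin, changed by 1.06 ± 0.26 (adjusted p = 0.0489), close to the threshold.

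In the list of hypoxia and glycolysis genes, the isoforms Pgam1 and Pgam2 parted. Of 28 genes, 6 were late-only higher (21.4%, against 3.75% of all tested genes) and 2 late-only lower (7.14%, against 1.67%). For the isoform genes Pfkl, Pfkp, Ldha, Eno1, Hk1 and Hk2 no change was called. Pfkm, the muscle phosphofructokinase, had 756.2 and 930.5 against 817.7 and 794.4 CPM at 4 h and 222 and 205.5 against 635.4 and 507 CPM at 24 h (change of effect 1.48 ± 0.21, adjusted p = 0.0174). Pgam2, the muscle phosphoglycerate mutase, changed by 1.30, whereas Pgam1, its widely expressed counterpart, changed by -0.79. Ldhb, the heart lactate dehydrogenase subunit, changed by 1.23, and Ndrg1, a hypoxia-induced gene, by -1.26. The vasodilator peptide gene Adm was early-only lower (-1.29 at 4 h, 0.09 at 24 h). Among 18 FoxO targets and genes of muscle atrophy, 5 were late-only higher (27.8%, against 3.75% of all tested genes). They included the autophagy genes Map1lc3a (1.08), Map1lc3b (0.64) and Gabarapl1 (0.95) and the muscle ubiquitin ligase component Fbxo40 (1.5). Fbxo40 stood at 125 and 169 against 88.3 and 112.6 CPM at 4 h and at 45.7 and 48.7 against 95 and 87 CPM at 24 h, and its 4 h effect of -0.55 ± 0.17 was just short of the threshold (adjusted p = 0.0558). Single members of other lists in the class were Me1, malic enzyme (1.0), the co-chaperone Bag3 (0.75), the chemokine Ccl5 (1.06) and Nkg7, a granule protein of cytotoxic lymphocytes (1.52). The call of Nkg7 (adjusted p = 0.0489) was lost in all 8 fits without 1 library and held in 4 of the 8 other alternatives.

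The late-only lower class held genes of DNA replication. Of 44 tested genes of the cell cycle and DNA replication, the change of effect was called downward in 12 (27.3%, against 2.43% of all tested genes). It was called upward in 0 (0 at an unadjusted p under 0.05 by edgeR, and 0 by DESeq2). Of the list, 10 were late-only lower (22.7%, against 1.67%) and 2 higher then lower, with a median change of -1.11. The median effect of the list was -0.30 at 4 h and -1.49 at 24 h. Changes of effect were -1.35 for Mcm2, -1.05 for Mcm4, -1.42 for Mcm5, -1.48 for Mcm6 and -1.07 for Mcm7, which are subunits of the replication helicase. They were -2.59 for cyclin E1 (Ccne1), -1.83 for the transcription factor E2f1, -1.52 for thymidine kinase (Tk1), -1.45 for the mitotic kinase Bub1 and -0.72 for Rrm1, a subunit of ribonucleotide reductase. The count ran from 0 to 16 with 1 library left out and was 0 in 4 of 8 fits, those without BT2 4 h replicate 2, either 24 h vehicle library or BT2 24 h replicate 1. It was 9 with the replicate block.

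Promoters of the late-only lower genes were read for the E2F motif, the site through which E2F factors switch on replication genes. Windows of 250 bases before the RefSeq start (build GRCr8) were found for 210 of the 254 genes, and 20 of them (9.52%) held TTTCCCGC or TTCCCGCC on either strand. The share was 3.83% among 11435 tested genes with a window and 2.12% among all 27457 windows, and these shares are descriptions that show no binding. Among 22 windows of genes that went from higher to lower, 0 held the motif. Another 7 motifs were searched, and in the late-only lower windows CCAAT (NFY) was found in 43.3% against 35.0% of tested genes, TTTGAA (CHR) in 10% against 10.5%, TGAGTCA (AP-1) in 3.81% against 3.21%, GAANNTTC (the heat shock core) in 3.81% against 5.05% and TGACGTCA (CRE) in 2.38% against 2.71%. TGATGCAA (CARE) and TCAAGGTCA (ERR) were in 1 window each. Of the 20 genes, 6 with a role in DNA replication or in histone supply were chosen after their values were seen, and 60 bases around the match are shown for each with the motif in capitals, in the 5′ to 3′ direction of the gene. Besides Mcm5, Mcm7 and Rrm1, they are the clamp loader subunit Rfc4 (change of effect -1.41), the histone chaperone Chaf1a (-1.71) and the histone mRNA-binding protein Slbp (-1.10). Mcm5 is shown at chr19:13488753-13488812 (plus strand), Mcm7 at chr12:22163369-22163428 (minus strand), Rrm1 at chr1:166235689-166235748 (plus strand), Rfc4 at chr11:91254213-91254272 (plus strand), Chaf1a at chr9:961164-961223 (plus strand) and Slbp at chr14:81295998-81296057 (plus strand).
Mcm5: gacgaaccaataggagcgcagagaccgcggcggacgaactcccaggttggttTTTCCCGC
Mcm7: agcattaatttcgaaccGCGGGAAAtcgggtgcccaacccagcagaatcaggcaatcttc
Rrm1: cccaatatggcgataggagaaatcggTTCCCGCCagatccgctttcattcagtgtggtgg
Rfc4: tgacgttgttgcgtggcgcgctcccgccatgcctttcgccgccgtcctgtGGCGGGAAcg
Chaf1a: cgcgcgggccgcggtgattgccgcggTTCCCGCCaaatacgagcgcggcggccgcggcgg
Slbp: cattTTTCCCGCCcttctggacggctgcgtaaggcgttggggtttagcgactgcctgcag

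Members of the macrophage, matrix and stress response lists were also late-only lower. Of 14 monocyte and macrophage markers, 5 had a called downward change and 0 an upward one (1 at an unadjusted p under 0.05, and 0 by DESeq2). The downward share was 35.7%, against 2.43% of all tested genes. The scavenger receptor Mrc1 (-1.60), the growth factor receptor Csf1r (-1.03) and the glycoprotein Gpnmb (-1.64) were late-only lower, the lysosomal protein Cd68 was lower at both times (-0.75 and -1.71) and Folr2 changed sign. Maf, a transcription factor of macrophages among other cells, stood at 32.1 and 27.7 against 33.3 and 37.3 CPM at 4 h and at 106.4 and 128.8 against 49.4 and 59.5 CPM at 24 h (change of effect -1.35 ± 0.20, adjusted p = 0.0193). Ifi30, a lysosomal thiol reductase of antigen-presenting cells, had 43.4 and 45 against 44.2 and 47.5 CPM at 4 h and 139.2 and 182.5 against 70.9 and 70.7 CPM at 24 h (change of effect -1.24 ± 0.19, adjusted p = 0.0193). For both genes the 2 vehicle libraries at 24 h were the highest of the 8. The summed level of the macrophage markers given above moved with them, and its part was not tested. The count of 5 ran from 0 to 7 with 1 library left out, 0 without vehicle 24 h replicate 2 or BT2 24 h replicate 1.

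Tgfbi, an extracellular protein induced by TGF-beta, had 71.4 and 84.4 against 79.1 and 73.1 CPM at 4 h and 343.6 and 367 against 99.6 and 137.7 CPM at 24 h. The 4 h groups overlapped, and at 24 h vehicle was clearly apart (change of effect -1.55 ± 0.23, adjusted p = 0.0181). Of 36 extracellular matrix genes, 3 were late-only lower (8.33%, against 1.67% of all tested genes). They were Tgfbi, the proteoglycan Bgn (-0.79) and the crosslinking enzyme Loxl1 (-0.76), while Dcn was late-only higher. In the list of the unfolded protein response and the integrated stress response, 4 of 29 genes (13.8%, against 1.67% of all tested genes) were late-only lower. They were Mthfd2, Pdia4 (-0.97), Dnajc3 (-0.74) and Edem1 (-0.91), the last 3 with roles in folding or disposal of proteins of the endoplasmic reticulum. Mthfd2, a mitochondrial enzyme of folate metabolism, had 21.8 and 24 against 26.9 and 21.5 CPM at 4 h and 25.7 and 27 against 7.23 and 10 CPM at 24 h (change of effect -1.68 ± 0.25, adjusted p = 0.0189). In contrast to the other genes named in this class, its vehicle level was alike at both times and only BT2 at 24 h was low. The small GTPase Arl4c (-1.26) and Fam105a (-2.19) were the others with the smallest p.

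Nppa, the gene of atrial natriuretic peptide, was late-only lower at the edge of the threshold. It stood at 265.8 and 307 CPM in vehicle and 215.4 and 172.5 CPM with BT2 at 4 h, and at 1911 and 1940 against 499.8 and 239.5 CPM at 24 h. Vehicle was above BT2 at both times, and the change of effect was -1.82 ± 0.43 (adjusted p = 0.0489). Nppb, the gene of B-type natriuretic peptide, was lower with BT2 at both times (-1.67 and -1.11), and its change of 0.56 ± 0.45 did not pass (adjusted p = 0.482).

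Of the early-only lower genes, Egr3 and Bdnf had the largest effects among those selected by rule. Egr3, an immediate early transcription factor, stood at 67.9 and 110.5 CPM in vehicle and 18.9 and 21.2 CPM with BT2 at 4 h, and at 8.23 and 7.09 against 9.45 and 7.5 CPM at 24 h. Bdnf, a neurotrophin, had 80.6 and 120.6 against 18.9 and 19.5 CPM at 4 h and 16.1 and 21.9 against 26.6 and 16.3 CPM at 24 h. In both genes the 4 h vehicle libraries lay above the other 6, and the 24 h groups overlapped at levels far below those of vehicle at 4 h. The changes of effect were 2.3 ± 0.34 (adjusted p = 0.0186) and 2.56 ± 0.40 (adjusted p = 0.0210). Of 24 immediate early genes, Egr3 and Ier2 (0.97) were called, both early-only lower, or 8.33% against 4.72% of all tested genes with an upward change, with 10 at an unadjusted p under 0.05 and a list median of 0.76. DESeq2 called 6, and with 1 library left out the count ran from 0 to 4. Egr1, with 457.6 and 675.5 against 150.5 and 192.1 CPM at 4 h and 36 and 44.8 against 63.4 and 27 CPM at 24 h, had a similar pattern and did not pass (change of effect 1.89 ± 0.54, adjusted p = 0.0811).

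Other lists had 1 or 2 members each in the early-only lower class. Spry4, a feedback inhibitor of the ERK pathway, had 133.4 and 119.7 against 54.3 and 46.2 CPM at 4 h and 37.8 and 38.4 against 39.1 and 28.2 CPM at 24 h (change of effect 1.15 ± 0.23, adjusted p = 0.0287). With Phlda1 (1.65) it made 2 of 18 genes of ERK feedback, or 11.1% against 4.72% of all tested genes with an upward change. At an unadjusted p under 0.05 by edgeR, 5 of the 18 changed upward and 2 downward. Cd274, which encodes the immune checkpoint ligand PD-L1, stood at 54.3 and 63.8 against 24.3 and 26.8 CPM at 4 h and at 33.3 and 30.3 against 33.9 and 36.1 CPM at 24 h (change of effect 1.35 ± 0.17, adjusted p = 0.0144). Casp8, the initiator caspase of death receptors, had 18.7 and 14.9 against 7.22 and 6.49 CPM at 4 h and 14.1 and 13.3 against 13.9 and 14.1 CPM at 24 h (change of effect 1.32 ± 0.22, adjusted p = 0.0215). For these last 2 genes BT2 at 4 h was the lowest group, and both 24 h groups lay above it. Gbp2, an interferon-induced GTPase, was the 1 called member of 32 interferon response genes (0.97 ± 0.22, adjusted p = 0.0399). That share of 3.12% is below the 4.72% of all tested genes with an upward change. The chloride channel Ano1 changed by 1.34 ± 0.21 and Frmd6, a protein of the Hippo pathway, by 1.08 ± 0.16. List members with an early-only lower effect also included the Notch ligand Dll4 (-0.83 and 0.17), the transcription factor Nfil3 (-1.62 and -0.17) and the transcriptional regulator Cited2 (-2.16 and -0.42).

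Early-only higher effects fell in few of the lists. Abca1, the exporter of cellular cholesterol, stood at 18.2 and 19.2 CPM in vehicle and 33.5 and 46 CPM with BT2 at 4 h, and at 54.5 and 61.7 against 54.9 and 52.4 CPM at 24 h. Vehicle at 4 h was lowest, and the 24 h groups overlapped at a higher level (effect 1.09 ± 0.16 at 4 h, change of effect -1.21 ± 0.22, adjusted p = 0.0242). Capn10, a calpain, had 8.38 and 8.62 against 17 and 23.4 CPM at 4 h and 15.9 and 15.7 against 12.3 and 12.1 CPM at 24 h (change of effect -1.63 ± 0.24, adjusted p = 0.0181). Here BT2 was below vehicle in both 24 h libraries, though the 24 h effect of -0.38 ± 0.16 did not pass (adjusted p = 0.0993). Ctdspl, a phosphatase, changed by -1.53 ± 0.26, Tp53i13 by -1.01 ± 0.18, Fam198b by -1.22 ± 0.18 and Arhgef25 by -1.03 ± 0.17. Among all lists, Bhlhe41, a repressor of the circadian clock, was the 1 member of this class (0.68 at 4 h and -0.43 at 24 h).

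**Figure D5:**
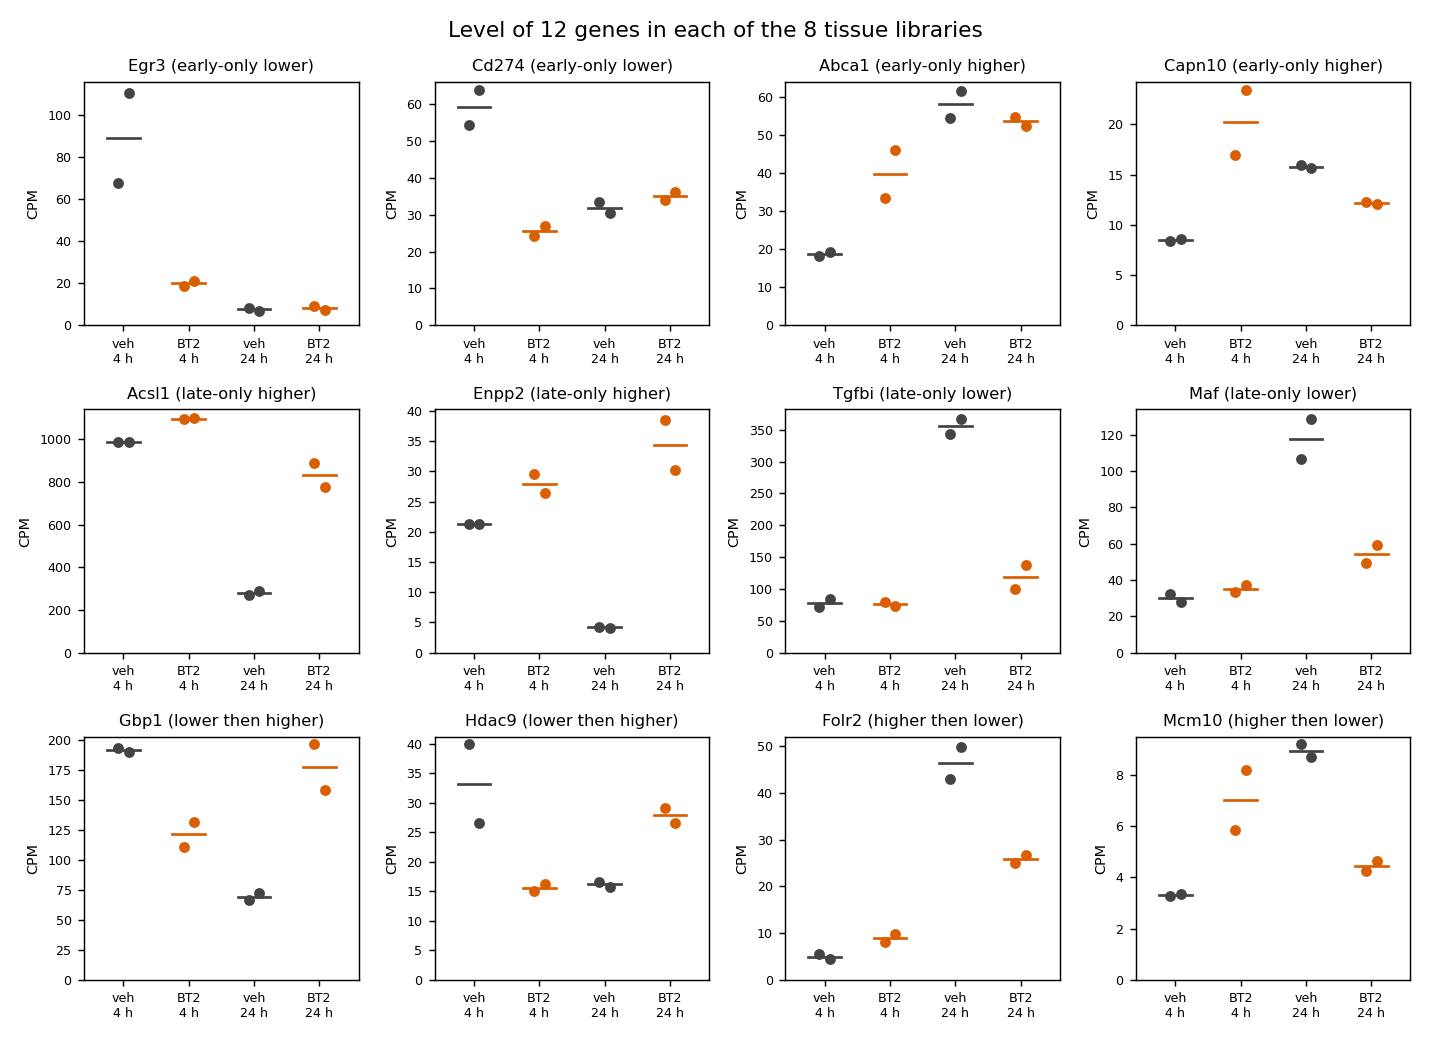
Level (y axis, CPM scaled with TMM factors, from 0) of 12 genes, 2 from each class, in the 4 groups (x axis), with a point for each library and a line at the group mean. Egr3 and Cd274 are highest in vehicle at 4 h, Acsl1 and Enpp2 lowest and Tgfbi and Maf highest in vehicle at 24 h, and BT2 lies on opposite sides of vehicle at 4 h and 24 h for Gbp1, Hdac9, Folr2 and Mcm10.

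Of the sign-changing genes, 31 were lower with BT2 at 4 h and higher at 24 h. Gbp1, an interferon-induced GTPase, had 193.5 and 190.4 CPM in vehicle and 110.7 and 131.7 CPM with BT2 at 4 h, and 66.7 and 72.3 against 196.3 and 158 CPM at 24 h. Its effects of -0.66 ± 0.13 and 1.35 ± 0.13 gave a change of 2.01 ± 0.19 (adjusted p = 0.0122). Hdac9, a class IIa histone deacetylase, had 39.9 and 26.5 against 15 and 16.1 CPM at 4 h and 16.6 and 15.7 against 29.2 and 26.6 CPM at 24 h (change of effect 1.87 ± 0.26, adjusted p = 0.0174). In both genes the vehicle level at 24 h was below that at 4 h and the BT2 level moved the other way. Hs3st5, a heparan sulfate sulfotransferase, changed by 2.81 ± 0.33, with 26.7 and 17.8 against 10.8 and 14.3 CPM at 4 h and 2.08 and 2.03 against 8.59 and 7.87 CPM at 24 h.

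Reg3b, a secreted lectin induced by injury, was the exception in its level. It stood at 11.3 and 13 against 4.44 and 6.43 CPM at 4 h and at 72.4 and 60 against 117.3 and 102.6 CPM at 24 h, so both groups were higher at 24 h (change of effect 1.88 ± 0.25, adjusted p = 0.0157). Egfl7, a factor secreted by endothelial cells, had 142.2 and 163 against 108 and 100.9 CPM at 4 h and 105.9 and 102.2 against 144.3 and 129.7 CPM at 24 h (change of effect 0.95 ± 0.15, adjusted p = 0.0208). It was the 1 called member of 11 endothelial markers (9.09%, against 4.72% of all tested genes with an upward change). The summed level of these markers was 2784 to 3199 CPM in vehicle and 3035 to 3124 CPM with BT2 at 4 h, overlapping, and 1920 to 2110 against 2686 to 2702 CPM at 24 h. Changes of effect were 1.90 for Mmrn1, a multimerin of endothelial cells and platelets, 1.68 for Bcl6b, a transcriptional repressor, 1.38 for the vascular homeobox gene Meox2 and 1.77 for the lymphatic chemokine Ccl21. These 4 were chosen after their values were seen. Efnb1, a ligand of Eph receptors, and Npas2, a transcription factor of the circadian clock, changed by 1.01 ± 0.15 and 1.55 ± 0.28.

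The other 25 sign-changing genes (0.164% of all tested genes) were higher with BT2 at 4 h and lower at 24 h. Among them were 1 of 14 monocyte and macrophage markers and 2 of 44 cell cycle genes. Folr2, a folate receptor of tissue macrophages, had 5.44 and 4.49 CPM in vehicle and 8.09 and 9.71 CPM with BT2 at 4 h, and 42.9 and 49.8 against 25.1 and 26.7 CPM at 24 h. Npl, a sialic acid lyase, had 4.9 and 4.21 against 7.85 and 8.97 CPM at 4 h and 30.6 and 33.5 against 13.6 and 18 CPM at 24 h. Both genes were higher at 24 h than at 4 h in each treatment, and the changes of effect were -1.70 ± 0.22 (adjusted p = 0.0144) and -1.92 ± 0.26 (adjusted p = 0.0157). Mcm10, a factor that starts DNA replication, had 3.26 and 3.37 against 5.87 and 8.18 CPM at 4 h and 9.2 and 8.7 against 4.25 and 4.65 CPM at 24 h (change of effect -2.10 ± 0.31, adjusted p = 0.0181). Changes of effect were -1.37 for thymidylate synthase (Tyms), -2.52 for Uhrf1, a factor of DNA methylation upkeep, -1.08 for the condensin subunit Ncapd3, -3.66 for the DNA repair gene Fanca and -2.15 for Atad5, which unloads the replication clamp. These 5 were picked after their values were seen, other than Tyms, which is a member of the cell cycle list. At 4 h Fanca stood at only 0.544 and 0.28 CPM in vehicle and 1.59 and 1.41 CPM with BT2, and its change has an SE of 0.48. Atad5 had 1.85 and 1.05 against 2.93 and 3.73 CPM at 4 h. All of these 4 h levels lie below the 5 CPM used as the mean limit for genes selected by rule. B4galt6, which makes lactosylceramide, and Gnpda1, an isomerase of glucosamine phosphate, changed by -1.42 ± 0.16 and -1.68 ± 0.20. This class held 25 genes with all 8 libraries, 0 to 61 with 1 library left out and 12 with all libraries thinned to the depth of the shallowest.

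Several lists had no called change of effect. Of 22 inflammatory cytokines and receptors, 0 had a called change by edgeR (2 upward and 1 downward at an unadjusted p under 0.05, 0 by DESeq2 and 1 by limma-trend), with median effects of -1.07 at 4 h and -1.51 at 24 h. For 16 genes of leukocyte adhesion the called count was 0 (2 upward and 3 downward unadjusted, 0 by DESeq2), with medians of -0.94 and -1.19. Of 12 neutrophil markers 0 were called (0 unadjusted, 0 by DESeq2), although their median effect was -2.28 at 4 h and -0.88 at 24 h and their summed level in vehicle at 4 h ran from 621 to 1739 CPM. Against 7.14% of all tested genes called in either direction, 0 calls in lists of this size are near the background, and a change that did not pass does not show that the effects were equal. Ccl2, the monocyte chemokine, stood at 768.5 and 773.6 against 272 and 62 CPM at 4 h and 269.5 and 322.7 against 27 and 54.9 CPM at 24 h, with a change of -0.64 ± 0.89 (adjusted p = 0.695). The changes were -2.66 ± 1.37 for Il6 (adjusted p = 0.276), -0.41 ± 0.41 for Fos (0.566), -0.11 ± 1.13 for Fosb (0.965) and -0.51 ± 0.20 for the adhesion molecule Vcam1 (0.142). Over the alternatives these ran from -3.47 to -0.461 for Il6 and from -0.727 to -0.016 for Fos, and neither passed in any.

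Nuclei from the AAR at 24 h, 1 library with vehicle (11540 barcodes, 45471510 UMIs) and 1 with BT2 at 100 mg/kg (10497 barcodes, 32624251 UMIs), gave a second readout of the 24 h side of these classes. The libraries shared 37 barcodes. UMIs (molecule counts) were summed over all barcodes, and with 1 library per group there is no replicate check and no test. Among 13466 tested genes with at least 50 UMIs, the CPM ratio of BT2 over vehicle was above 1 in 43.1%. Late-only higher genes did not stand out in the direction seen in tissue, with a ratio above 1 in 182 of 489 (37.2%). The share below 1 was 62.8% among late-only higher and 61.9% among late-only lower genes, against 56.9% of all. Their median ratios were 0.931 and 0.923, so the late-only classes did not part in nuclei. Among genes that went from higher to lower, the share below 1 was 84.0% (21 of 25). Of the genes that went from lower to higher, 33.3% had a ratio above 1.

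Single genes parted in the same readout. Enpp2 (ratio 3.67, exact 95% interval from 3.20 to 4.22), Myh11 (3.11, 2.86 to 3.38), Mmp2 (2.33, 2.06 to 2.62) and Gsn (1.62, 1.55 to 1.70) were higher with BT2 in nuclei as in tissue. Acsl1 (0.668, 0.630 to 0.708) and Tnni3, the cardiac troponin I gene (0.822, 0.789 to 0.856), were lower in nuclei and higher in tissue, and Ndufs7 had a ratio of 0.897 (0.788 to 1.02). Fam105a (0.456, 0.433 to 0.479), Tgfbi (0.635, 0.610 to 0.661), Maf (0.704, 0.675 to 0.734), Ifi30 (0.612, 0.550 to 0.679) and Folr2 (0.562, 0.517 to 0.611) were lower in both readouts. Mthfd2, late-only lower in tissue, was not lower in nuclei (1.07, 0.971 to 1.17). Of the genes that went from lower to higher, Hs3st5 (1.46, 1.35 to 1.58), Egfl7 (1.26, 1.21 to 1.30) and Npas2 (1.60, 1.5 to 1.70) were higher with BT2 in nuclei, as in tissue at 24 h. Gbp1 (0.815, 0.741 to 0.896), Hdac9 (0.762, 0.751 to 0.773), Efnb1 (0.793, 0.656 to 0.957) and Reg3b (0.222, 0.141 to 0.338) went against the tissue. So did the late-only genes Ccl5 (0.576, 0.439 to 0.750), Fbxo40 (0.737, 0.639 to 0.848) and Nppa (1.24, 1.14 to 1.35). These intervals cover counting error only.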

How the data were processed

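The authors deposited raw counts per gene for 8 tissue libraries and, for 2 nuclei libraries, raw UMI counts per gene and barcode. Trim Galore (trimming), STAR (alignment to the rat build Rnor_6.0), featureCounts (counting) and, for nuclei, Cell Ranger were used per the submitters' processing notes (version 8.0.1 per the file headers). The other versions, the annotation and the strand setting were not given in the sources used here, so genes with near-identical copies (Ces1d, Gbp1, Gbp2) or antisense partners are uncertain. Columns were matched to samples by the names in the sample descriptions, and 0 stayed unassigned.

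The tissue counts entered edgeR 4.0.16 (R 4.3.3): filterByExpr, TMM factors, and a robust quasi-likelihood fit with 1 mean per group over all 8 libraries, which left 4 residual degrees of freedom. Tests were two-sided and called at a Benjamini-Hochberg adjusted p under 0.05. The standard error of a log2 value is its size divided by the square root of F. Alternatives used DESeq2 1.42.0 and limma 3.58.1 (limma-trend on log2 CPM, prior count 3), other scaling and filters, thinning, a replicate block and leaving out each library. Leaving out a library in limma-trend was added after the data were seen.

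The classes, the 27 pathway lists and the 10 marker lists were chosen with earlier results of these data known. Of 797 list entries, 786 matched by symbol, 7 by another symbol and 4 did not match. The genes selected by rule have a mean of at least 5 CPM and separate libraries where called. They are the 6 smallest p of each early-only or late-only class, the 5 smallest in each direction of sign change, the member with the smallest p of each list, and Nppa, Nppb, Fos, Fosb, Egr1, Ccl2, Il6 and Vcam1. Other list members, and genes said to be chosen after their values were seen, need not meet these limits. Lists are described by counts and medians, without a set test. Nuclear UMIs were summed over all deposited barcodes without removing doublets, and ratios of CPM carry exact 95% intervals (Clopper-Pearson, Poisson model). Promoter windows come from RefSeq (GRCr8), matched by symbol.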

Additional observations from a re-analysis of the deposited data

Results flagged for a closer look

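The values here are those of the genes selected by rule in the report whose BT2 effect differed between 4 h and 24 h by a test of the difference itself (edgeR, adjusted p under 0.05), each given as the change of effect on the log2 scale. They repeat the report's comparison and carry its limits, above all that with 1 library left out edgeR called 0 genes, and limma-trend 6, in all 8 fits.

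Late-only higher genes with fatty acid, respiratory, contractile or other roles were Acsl1 (1.43), Bag3 (0.76), Ccl5 (1.06), Ces1d (2.70), Enpp2 (2.63), Fbxo40 (1.5), Gsn (1.87) and Hfe2 (1.69). The class further held Hibch (1.11), Hrc (1.73), Me1 (1.0), Mmp2 (1.14), Myh11 (1.06), Myom2 (1.29) and Ndufs7 (0.89). Its other genes were Nkg7 (1.52), Pdp1 (0.94), Perm1 (1.39), Pfkm (1.48), Serping1 (1.66), St6galnac2 (1.45) and Tnni3 (1.19). Late-only lower genes were Arl4c (-1.26), Fam105a (-2.19), Ifi30 (-1.24), Maf (-1.35), Mthfd2 (-1.68), Nppa (-1.82) and Tgfbi (-1.55). Early-only lower genes were Ano1 (1.34), Bdnf (2.56), Casp8 (1.32), Cd274 (1.35), Egr3 (2.3), Frmd6 (1.08), Gbp2 (0.97) and Spry4 (1.15), with a positive change because the effect at 4 h was negative. Early-only higher genes were Abca1 (-1.21), Arhgef25 (-1.03), Capn10 (-1.63), Ctdspl (-1.53), Fam198b (-1.22) and Tp53i13 (-1.01). The sign changed from lower to higher in Efnb1 (1.01), Egfl7 (0.95), Gbp1 (2.01), Hdac9 (1.87), Hs3st5 (2.81), Npas2 (1.55) and Reg3b (1.88). It changed from higher to lower in B4galt6 (-1.42), Folr2 (-1.70), Gnpda1 (-1.68), Mcm10 (-2.10) and Npl (-1.92). Each group held 2 libraries, too few to ask whether 1 lay far from the rest.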

How the results depend on the processing

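With 1 library left out, the genes called ran from 0 to 1443, with 0 to 894 upward and 0 to 549 downward. The classes ran from 0 to 153 (early-only higher), 0 to 133 (early-only lower), 0 to 642 (late-only higher), 0 to 300 (late-only lower), 0 to 50 (lower then higher) and 0 to 61 (higher then lower). Without a filter on low counts there were 1819 calls, 1089 upward and 730 downward, with 140 early-only higher, 128 early-only lower, 468 late-only lower, 47 lower then higher and 40 higher then lower genes. DESeq2 gave 581 downward calls, 114 early-only higher and 134 early-only lower genes. Thinned counts gave 47 early-only higher and 12 higher then lower genes. The replicate block gave 222 downward calls, 36 early-only higher and 148 late-only lower genes. At a threshold of 0.10 the classes held 179 (early-only higher), 172 (early-only lower), 935 (late-only higher), 585 (late-only lower), 89 (lower then higher) and 81 (higher then lower) genes. Libraries with the same number deviated from their groups with correlations of -0.046 to 0.097, so the numbers were not treated as pairs. None of the 1087 genes reversed direction under any alternative that gave it a value, and the other class counts stayed within 1.5 times. Of the 55 called genes selected by rule, 55 kept their call with DESeq2, limma-trend and the filter at 5 CPM, 54 with RLE factors and without a filter, 53 with upper quartile factors, 52 with thinned counts and 51 with the replicate block, and 210 of their calls were lost and 230 kept over the fits without 1 library. Over all the alternatives, the change of effect ran from -0.004 to 0.945 for Nppb, from -1.35 to 0.78 for Ccl2 and from -1.6 to 0.69 for Fosb. Reversed values, none of them called, were -0.004 for Nppb without BT2 24 h replicate 1, 0.78 for Ccl2 without BT2 4 h replicate 1, and for Fosb 0.41 without vehicle 4 h replicate 1, 0.69 without BT2 4 h replicate 1, 0.47 without vehicle 24 h replicate 2 and 0.62 without BT2 24 h replicate 2. The cause of these shifts was not tested, and with 2 libraries per group a fit without 1 library takes the spread of the lone library from the other groups.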

Other observations

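Genes of the circadian clock were spread over several classes. Npas2 had 13.3 and 15.8 CPM in vehicle and 8.64 and 7.56 CPM with BT2 at 4 h, and 7.91 and 8.66 against 15.7 and 11.3 CPM at 24 h, and went from lower to higher. Nr1d1, a repressor of the clock loop, was late-only higher (-0.51 at 4 h and 0.80 at 24 h), Nfil3 early-only lower (-1.62 and -0.17) and Bhlhe41 early-only higher (0.68 and -0.43). Of the 25 genes of the list, 3 had a called upward and 1 a called downward change. These are 12% and 4%, against 4.72% and 2.43% of all tested genes.

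Among transcripts of secreted cardiac stress proteins, Nov was late-only higher (change of effect 1.61). Of the growth factor genes in the matrix list, Tgfb2 and the TGF-beta binding protein Ltbp2 were lower at both times and more so at 24 h (-1.18 and -2.27 for Tgfb2, and -1.70 and -2.98 for Ltbp2).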
